A study of Mus musculus with 2 samples.

Results

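Imprinted genes are transcribed mainly or only from the allele inherited from one parent, and 48 such mouse genes, taken from a fixed list and grouped by chromosomal cluster, are described here in embryonic neural tube. Each gene was found by its Ensembl identifier, and 47 of the 48 matched an entry among the 43346 annotated genes of the deposited tables; Peg13 was not analysed here. The libraries hold total RNA of more than 200 nucleotides from B6NCrl embryos at 15.5 days, and the labels name no transgene, treatment or other genotype. Replicate 1 was a pool of 78 embryos and replicate 2 a pool of 62, each of mixed sex, and both were made from 10 ng of RNA with added spike-in RNAs. The libraries form 1 group, so no condition could be compared and no p-value is given. SDs (n = 2) measure the spread between the pools.

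Imprints are DNA methylation marks laid down in the egg or sperm at imprinting control regions, and they are kept through the reprogramming that follows fertilisation. A control region usually governs several neighbouring genes, often with a long noncoding RNA made from one parental chromosome and coding genes active on the other. Many of these genes act on growth of the embryo and placenta, and many are expressed in neurons. The deposited tables carry no allele information: the active allele given for each gene below is background knowledge, and 12 members whose imprint depends on tissue or isoform are kept in a class of their own.

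Gene expected counts, which are reads shared out over transcripts by a model, summed to 34678043 in replicate 1 and 41355355 in replicate 2. Levels are in TPM, an abundance corrected for transcript length and scaled to the library total, so that levels of different genes can be set side by side. The label of the tissue was checked against marker lists. All 8 neuron markers, all 7 markers of radial glia and progenitors, and all 6 Hox genes of spinal position reached 1 TPM in both libraries, whereas of 6 forebrain and midbrain markers only Lhx2 did (1.34 and 2.44 TPM), and Six3 and En2 were listed at 0. Markers of other tissues were present too. All 8 of mesenchyme and meninges, all 6 of skeletal muscle and all 5 of endothelium and blood reached 1 TPM in both libraries. The last list summed to 6010 TPM in replicate 1 and 5269 in replicate 2. The pools stood apart in further cell types. The 8 thymus markers summed to 335 TPM in replicate 1 and 0.34 in replicate 2, the 7 epithelial markers to 642 and 9.60, and the 5 proliferation markers to 397 and 192. In these bulk samples, fewer cells of a type and less RNA per cell cannot be told apart.

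The start regions of some members are shown first, since several control regions lie at the start of a member. Mest, Nap1l5, Mcts2 and Plagl1 are known to start within regions methylated in the egg, and Meg3 at a region that becomes methylated on the paternal chromosome. Zfp57, a zinc finger protein that keeps imprints, is known to bind TGCCGC when it is methylated. Capitals mark that hexamer or its reverse complement GCGGCA in the 250 bases before the start of RefSeq windows (GRCm38.p6), printed 5′ to 3′ on the strand of the gene. The 5 windows below were chosen, with the matches known, because they contain it. They cover chr6:30737800-30738049 (Mest, plus strand), chr6:58907127-58907376 (Nap1l5, minus strand), chr2:152686898-152687147 (Mcts2, plus strand), chr10:13090582-13090831 (Plagl1, plus strand) and chr12:109540746-109540995 (Meg3, plus strand).
Mest: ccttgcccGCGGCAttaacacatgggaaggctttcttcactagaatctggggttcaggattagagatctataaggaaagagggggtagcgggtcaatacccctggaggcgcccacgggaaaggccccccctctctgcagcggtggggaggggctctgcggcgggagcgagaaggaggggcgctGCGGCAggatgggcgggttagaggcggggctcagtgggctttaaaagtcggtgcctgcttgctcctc
Nap1l5: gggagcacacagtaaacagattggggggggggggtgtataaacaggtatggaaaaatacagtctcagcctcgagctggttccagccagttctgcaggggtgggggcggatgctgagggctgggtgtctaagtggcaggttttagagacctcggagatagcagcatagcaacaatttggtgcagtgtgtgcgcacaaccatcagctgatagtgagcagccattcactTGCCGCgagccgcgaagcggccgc
Mcts2: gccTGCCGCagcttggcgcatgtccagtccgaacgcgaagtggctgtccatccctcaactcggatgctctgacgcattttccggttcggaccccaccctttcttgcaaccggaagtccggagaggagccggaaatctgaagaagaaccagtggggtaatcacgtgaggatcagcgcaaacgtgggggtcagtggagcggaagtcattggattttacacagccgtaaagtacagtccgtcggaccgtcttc
Plagl1: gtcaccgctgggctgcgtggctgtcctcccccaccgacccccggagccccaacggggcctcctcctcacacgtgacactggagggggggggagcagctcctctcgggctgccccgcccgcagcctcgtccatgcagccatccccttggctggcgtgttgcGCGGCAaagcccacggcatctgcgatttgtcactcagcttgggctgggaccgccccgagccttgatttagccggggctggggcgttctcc
Meg3: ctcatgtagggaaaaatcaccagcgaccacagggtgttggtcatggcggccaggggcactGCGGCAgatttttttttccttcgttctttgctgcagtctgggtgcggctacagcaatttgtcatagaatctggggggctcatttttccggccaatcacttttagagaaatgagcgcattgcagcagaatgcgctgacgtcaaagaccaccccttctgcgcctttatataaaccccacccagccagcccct
Relative to the start of the window's gene, with negative positions upstream, the hexamer began at -242 and -67 in Mest, at -24 in Nap1l5, at -247 in Mcts2, at -90 in Plagl1 and at -190 in Meg3. A match is a description of the letters, not of a bound site.

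Start windows of members were CpG rich, about as much as those of genes expressed in this tissue. The RefSeq table held 59 windows of 300 bases (250 before to 50 after the start) for 39 members, with chromosome 18 left out. The windows are not independent. Some members have several, some windows overlap, as in Mest and Begain, and Snhg14 and Snrpn share a window. The ratio of observed to expected CpG, which is low where methylated CpGs were lost over evolution, had a median of 0.68 in members, 0.38 in all 32851 windows and 0.74 in windows of detected genes. It exceeded 0.6 in 35 of the 59 windows (59.3%), in 35.8% of all windows and in 66.7% of those of detected genes. TGCCGC, on either strand, was in 13 of the 59 windows (22.0%), in 11.6% of all windows and in 19% of those of detected genes. Among CpG-rich windows alone (ratio over 0.6), it was in 11 of 35 of members (31.4%) and in 24.3% of all. GCCATCTT, a core of the motif of Yy1, on either strand, was in 1 window (1.69%) against 2.75% of all. By active allele, the median CpG ratio was 0.58 over 28 windows of 20 paternally expressed genes and 0.55 over 10 windows of 8 maternally expressed genes. It was 0.84 over 21 windows of 11 genes of the dependent class.

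**Figure D1:**
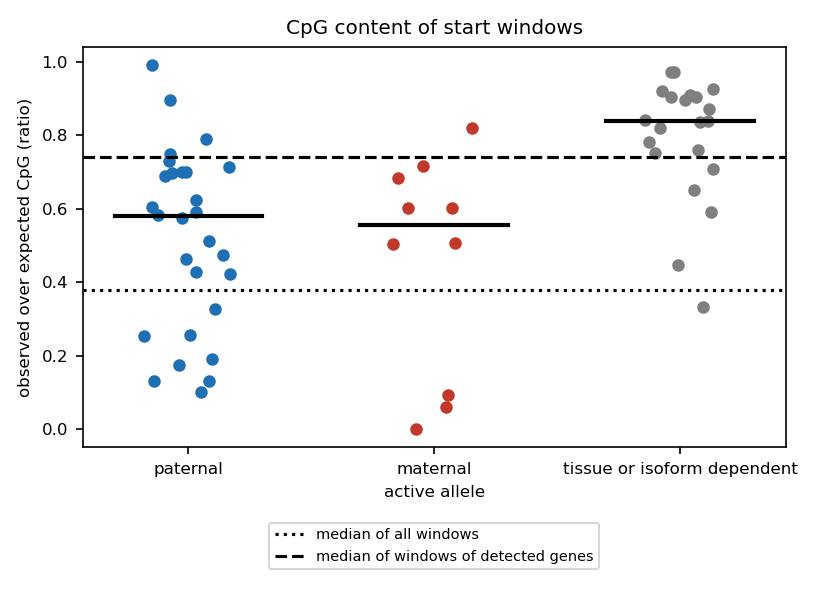
Ratio of observed to expected CpG (vertical axis) in RefSeq start windows of members, 1 point a window, by the allele known to be active; bars are class medians, the dotted line is the median of all windows and the dashed line that of windows of detected genes. The paternal (0.58) and maternal (0.55) medians lie between the lines at 0.38 and 0.74, and the dependent class (0.84) lies above both.

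As a group, the imprinted genes were expressed in most cases and were among the more abundant transcripts of the tissue. Of the 47 measured, 42 reached 1 TPM in both libraries, where 35.8% of all annotated genes, 63.4% of protein-coding genes and 15.9% of long noncoding genes did. The 5 that did not were at 1 TPM or more in replicate 1 alone, the library with the thymus and epithelial markers. Whether those cell types bear on these 5 genes was not tested. The median member stood at 34.5 TPM in replicate 1 and 33.8 in replicate 2, against 17 and 15.98 TPM over all detected genes. Together they made 11140 and 13120 TPM, which is 1.11% and 1.31% of all TPM. The 16 members with a mean of 100 TPM or more held most of this, and the 5 highest, Nnat, Meg3, Gnas, Snrpn and Ndn, held 71.3% of the member TPM in replicate 1 and 76.2% in replicate 2. Ranked by mean TPM, 4 members were among the 100 highest genes, 8 among the 500 highest and 17 among the 2000 highest. A mean of 100 TPM or more was reached by 16 of the 47 members and by 1760 of the 15505 detected genes.

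**Figure D2:**
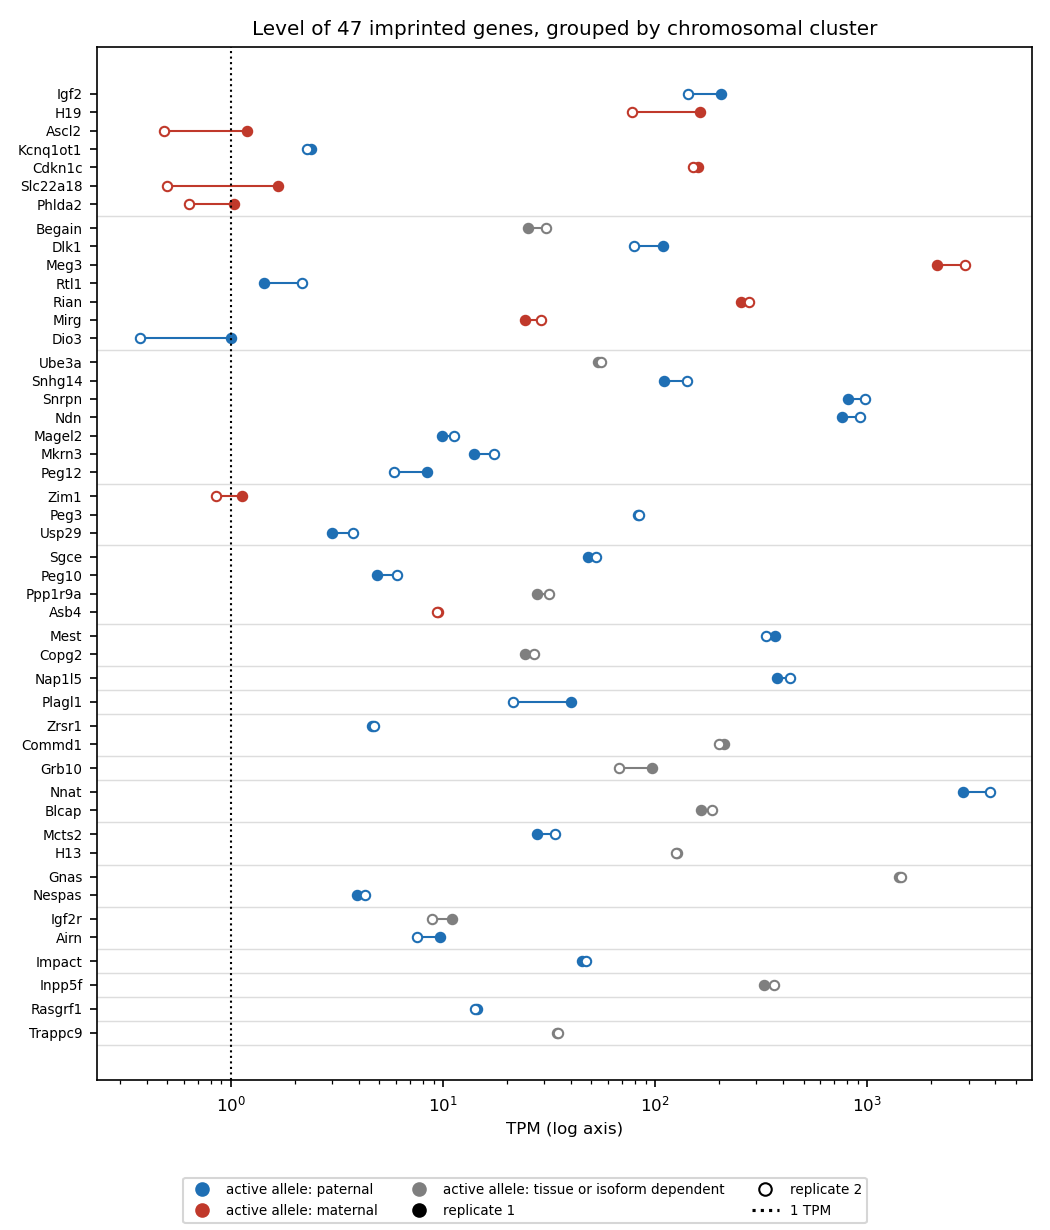
TPM (log axis) of the 47 measured imprinted genes, grouped by cluster with grey lines between clusters; filled points are replicate 1, open points replicate 2, colours the allele known to be active, and the dotted line 1 TPM. Most pairs of points nearly coincide; Ascl2, Slc22a18, Phlda2, Dio3 and Zim1 have a point below 1 TPM, and Nnat, Meg3 and Gnas lie furthest right.

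Nnat, neuronatin, a small membrane protein of the endoplasmic reticulum known from developing neurons, was the highest member. It stood at 2825 TPM in replicate 1 and 3768 in replicate 2, a mean of 3296 ± 666 (SD, n = 2), on 67025 and 106839 expected counts, and ranked 22 of all genes. Nnat (ENSMUSG00000067786, chr2:157560078-157562522, plus strand) lies within Blcap on the opposite strand and is known to be silent on the maternal allele. Blcap, whose imprint depends on tissue and isoform and whose product is linked to cell cycle and apoptosis, gave 165 and 184 TPM. The ratio of Nnat to Blcap was 17.1 and 20.4. Start sites of this pair were simple: 99.9% of Nnat TPM in replicate 1 and 99.85% in replicate 2 came from the first site, and 98.2% and 98.1% of Blcap from 1 site.

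The Dlk1-Dio3 domain on chromosome 12 was dominated by the noncoding RNAs of the maternal chromosome. Meg3 (ENSMUSG00000021268, chr12:109541001-109571726, plus strand) measured 2135 and 2888 TPM, a mean of 2512 ± 532 (SD, n = 2), and ranked 31. Rian, the host of C/D box small nucleolar RNAs, measured 252 and 276 TPM, and Mirg, the host of a large microRNA cluster, 24.2 and 28.9. The 3 RNAs are thought to be made as one long transcription unit, yet their levels per length fell along it in both libraries: Meg3 was 8.46-fold and 10.5-fold above Rian, and 88.1-fold and 100.1-fold above Mirg.

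The coding genes of the paternal chromosome in this domain lay far lower. Dlk1, a membrane-bound Notch-like ligand, stood at 109 and 79.1 TPM (mean 93.9 ± 20.9, SD, n = 2). Rtl1, a retrotransposon-derived gene needed in placental vessels, stood at 1.43 and 2.16 TPM, and Dio3, the deiodinase that inactivates thyroid hormone, at 1.00 and 0.37 TPM on 37 and 19 counts. Dio3 therefore sat at the detection level in replicate 1 and below it in replicate 2. Meg3 exceeded Dlk1 19.7-fold in replicate 1 and 36.5-fold in replicate 2. Begain, which encodes a protein of the postsynaptic density and has an isoform-dependent imprint, gave 25.1 and 30.6 TPM.

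In the Prader-Willi and Angelman region on chromosome 7, the paternally expressed coding genes differed widely in level, with Snrpn and Ndn far above the rest. Snrpn, which encodes the spliceosomal protein SmN, stood at 808 and 979 TPM (mean 893.5 ± 121, SD, n = 2; chr7:59982495-60140219, minus strand) and ranked 97. Ndn, necdin, a MAGE family protein of postmitotic neurons, stood at 756 and 924 TPM and ranked 113. Magel2, another MAGE family gene and its near neighbour, stood at 9.84 and 11.3 TPM, so that Ndn was 76.8-fold and 82.1-fold above it. Mkrn3, a ring finger protein, had 14.0 and 17.4 TPM, and Peg12, a Frat family gene, had 8.35 and 5.88, the only one of the 7 genes here that was higher in replicate 1.

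Ube3a, the ubiquitin ligase that is silenced on the paternal allele in mature neurons, measured 53.5 and 55.8 TPM. Snhg14, the noncoding RNA that runs from Snrpn across Ube3a on the opposite strand and is known to silence it in cis, measured 110.4 and 141 TPM, or 2.07-fold and 2.54-fold above Ube3a. The ratio takes all start sites of Snhg14 together. Its highest site, at 59696211 to 59696230, held 34.6% and 33.0% of its TPM. A site much closer to Ube3a, at 59324149, held 7.33% and 6.76%. The order of Snhg14 above Ube3a holds per length only. On CPM, which does not correct for length, the mean log2 ratio of Snhg14 over Ube3a was -0.64 instead of 1.18 on TPM, Ube3a having an effective length of 4998 bases and Snhg14 of 1414. Snurf, which shares its first exons and reads with Snrpn, is listed apart at 567 and 669 TPM on a gene model of only 216 bases, so the split of TPM between the pair is uncertain.

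The Gnas locus gave the third highest member. Gnas made 1415 and 1447 TPM, a mean of 1431 ± 23.1 (SD, n = 2), the closest pair of values among the 5 highest members. Nespas, the paternally expressed antisense RNA at its upstream end, had 3.92 and 4.30 TPM, 361-fold and 337-fold lower. The locus has several first exons with different imprints, spliced to shared downstream exons: Nesp, which is maternally expressed; XL, which is paternally expressed; exon 1A, a paternally expressed noncoding start; and the exon of the stimulatory G protein subunit Gsα, which is biallelic in most tissues. Of 7 annotated start sites, the Gsα site (chr2, 174330006 to 174330287) held 86.8% of Gnas TPM in replicate 1 and 86.35% in replicate 2. The furthest upstream site, at 174284320 in the Nesp region, held 5.68% and 6.06%, the site at 174297859 in the XL region 2.14% and 2.48%, and the site from 174327570 to 174328023 in the exon 1A region 3.95% and 3.44%. In TPM, the Nesp-region site alone came to 80.4 and 87.7, beside 82.8 and 83.9 for the whole of Peg3. The 250 bases before the imprinted first start and before the main Gsα start show how the promoters differ (GRCm38.p6, plus strand, chr2:174284070-174284319 and chr2:174329756-174330005).
Gnas first start: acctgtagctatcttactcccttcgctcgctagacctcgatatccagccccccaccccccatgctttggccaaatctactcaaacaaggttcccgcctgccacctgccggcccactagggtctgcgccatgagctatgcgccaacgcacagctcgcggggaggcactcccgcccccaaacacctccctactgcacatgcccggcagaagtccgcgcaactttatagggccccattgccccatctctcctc
Gnas main start: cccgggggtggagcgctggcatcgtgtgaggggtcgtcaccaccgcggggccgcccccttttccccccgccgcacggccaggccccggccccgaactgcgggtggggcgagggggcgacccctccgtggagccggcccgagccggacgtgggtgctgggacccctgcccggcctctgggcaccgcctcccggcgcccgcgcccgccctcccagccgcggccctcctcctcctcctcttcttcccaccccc
The printed letters hold 14 CpGs in the first and 29 in the second. The ratio of observed to expected CpG was not taken on these letters alone. It covers the longer start windows described above, which also take in bases after the start. Those windows hold 16 CpGs with a ratio of 0.65 for the first and 40 with a ratio of 0.839 for the second. Neither promoter holds TGCCGC on either strand within the printed letters.

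**Figure D3:**
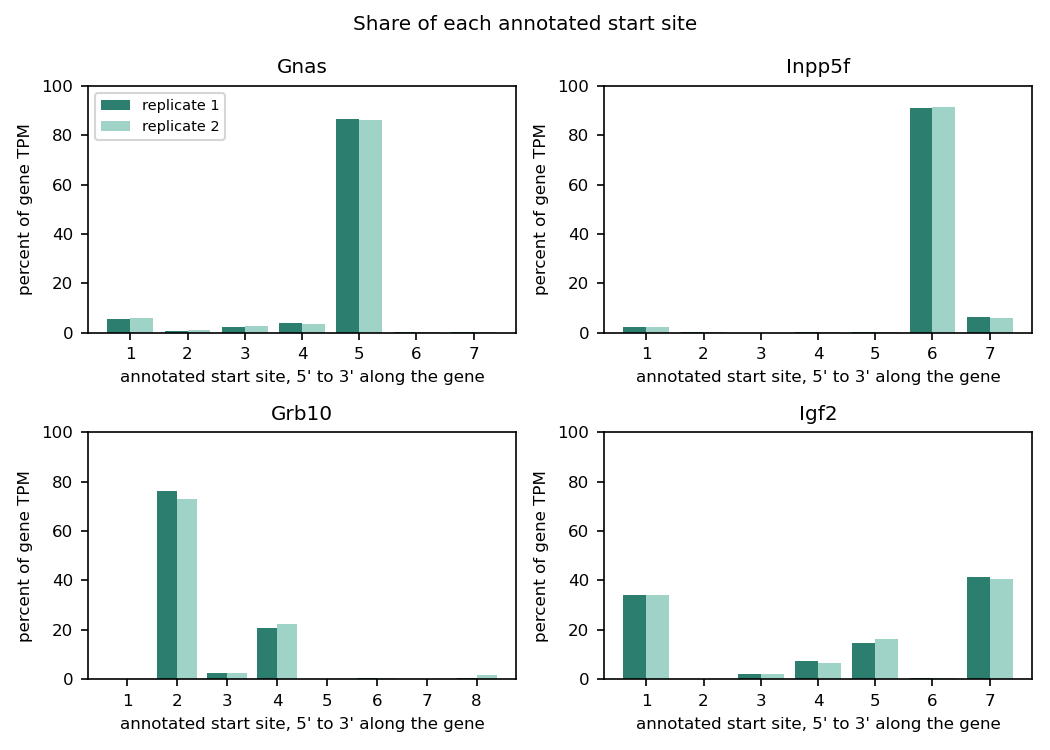
Percent of a gene's TPM (vertical axis) at each annotated start site, numbered 5′ to 3′ along the gene, for Gnas, Inpp5f, Grb10 and Igf2; dark bars are replicate 1 and light bars replicate 2. One site dominates in Gnas (86.8% and 86.35%), Inpp5f (91.0% and 91.4%) and Grb10 (76.1% and 73.2%), and Igf2 is spread over several sites.

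Inpp5f is another member where the isoform decides the imprint: the full-length gene, an inositol phosphatase, is biallelic, and a short form from a start inside the gene is known to be paternally expressed in brain. Inpp5f stood at 327 and 362 TPM. An internal site at 128687546 on chromosome 7 held 91.0% of this in replicate 1 and 91.4% in replicate 2, a neighbouring internal site at 128688489 6.42% and 5.86%, and the full-length start (128611328 to 128611360) 2.27% and 2.41%, on 690 and 985 counts. Inpp5f RNA in this tissue was thus mostly assigned to transcripts that start within the gene.

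Grb10, an adaptor that restrains insulin and IGF receptor signalling, is known to be expressed from the maternal allele in most tissues and from the paternal allele in neurons, from different promoters. Its level was 97.0 and 67.6 TPM. The upstream site, at 12037401 on chromosome 11 (minus strand), held 76.1% and 73.2%, and a downstream site (12026324 to 12026732) 20.9% and 22.3%. The second share rests on short transcripts with only 172 and 167 counts, so it is less firmly measured than the first, which had 8126 and 6506.

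The Igf2-H19 and Kcnq1ot1 domains, neighbours on chromosome 7, held the growth regulators, and all 7 members there were higher in replicate 1. Of the 15505 detected genes, 8019 were higher in replicate 1 and 7444 in replicate 2. The log2 ratio of (TPM + 1) ran from 0.05 in Kcnq1ot1 and 0.08 in Cdkn1c to 1.05 in H19. In 3 of the 7, the level in replicate 2 was under 1 TPM. Igf2, the fetal growth factor made from the paternal allele, stood at 205 and 142 TPM (mean 173.8 ± 44.4, SD, n = 2; chr7:142650766-142666816, minus strand). H19, the maternally expressed noncoding RNA that shares its enhancers, stood at 162 and 77.9 TPM (mean 120.2 ± 59.8; chr7:142575529-142578143, minus strand). H19 was below Igf2 in both libraries, at 0.792 and 0.547 of its level. Cdkn1c, the maternally expressed inhibitor of cyclin-dependent kinases, was at 160 and 151 TPM and differed little between the pools (155.5 ± 6.03). Igf2 had no dominant start: the furthest downstream site, at 142653030 and with a transcript annotated as processed, held 41.45% and 40.7%, the furthest upstream site, at 142666816, 33.95% and 33.98%, the site from 142657466 to 142657496 14.8% and 16.4%, and the site at 142659489 7.39% and 6.53%. These shares are per length, and expected counts order the sites differently: in the sequence just given, the sites had 1621, 851.8, 1663 and 1556 counts in replicate 1 and 1320, 706.4, 1543 and 1138 in replicate 2.

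The other maternally expressed coding genes of these domains were at the edge of detection. Ascl2, a transcription factor of the trophoblast, had 1.19 and 0.48 TPM, Phlda2, which restrains placental growth, 1.03 and 0.63, and Slc22a18, a transporter-like protein, 1.66 and 0.50, on 11 to 49 counts each. Kcnq1ot1, the paternally expressed RNA that silences this domain in cis, had 2.39 and 2.28 TPM, which over its length of 84395 bases corresponds to 4469 and 5093 expected counts. Its low TPM therefore does not stand for few reads, and Cdkn1c was 66.8-fold and 66.3-fold above it per length.

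Members that stand in smaller clusters were mostly well expressed. Nap1l5, a retrogene related to nucleosome assembly proteins inside an intron of Herc3, stood at 376 and 431 TPM (mean 403.6 ± 39.3, SD, n = 2), and its host Herc3 at 22.0 and 29.0. Mest, a hydrolase-like gene of mesoderm and brain, stood at 366 and 334 TPM, 15.01-fold and 12.4-fold above its neighbour Copg2, a coat protein subunit at 24.4 and 26.8. The start window of Mest shown above was that of the site with 83.2% of its TPM in replicate 1 and 65.9% in replicate 2. Another 12.9% and 27.9% of Mest fell on transcripts of the authors' annotation with no match in the release used here for starts, so the start of that share is not placed here.

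The retrogenes Mcts2 and Zrsr1, in contrast to Nap1l5, were lower than their host genes. Mcts2, a translation factor retrogene, had 27.7 and 33.8 TPM, and its host H13, a signal peptide peptidase, 127 and 125, so H13 was 4.58-fold and 3.69-fold above it. Transcription of Mcts2 is known to go with early polyadenylation of H13 on the same chromosome. The 2 H13 transcripts that end before the start of Mcts2, a set chosen after its values were seen, held 13.0% and 14.7% of H13 TPM, and the 4 that run past it held 87.0% and 85.3%. Zrsr1, a splicing factor retrogene, had 4.61 and 4.71 TPM, and its host Commd1, a regulator of copper handling, 210 and 199, a 45.5-fold and 42.3-fold excess.

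Peg3, a large zinc finger protein, stood at 82.8 and 83.9 TPM, with 100% of it at 1 start site. Its neighbour Usp29, a ubiquitin protease read from the same region in the other direction, had 2.98 and 3.77 TPM, and the maternally expressed Zim1, a zinc finger gene, 1.12 and 0.85. On chromosome 6, Sgce, the epsilon sarcoglycan whose loss gives myoclonus dystonia, had 48.4 and 52.5 TPM, and Peg10, a retrotransposon-derived gene with which it shares a bidirectional promoter region, had 4.88 and 6.05, so Sgce was 9.91-fold and 8.68-fold higher. Ppp1r9a, neurabin, stood at 27.75 and 31.4 TPM, and the maternally expressed Asb4 at 9.47 and 9.34.

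Igf2r, a receptor that clears IGF2 and is kept in the dependent class, had 11.0 and 8.86 TPM. Airn, the paternally expressed antisense RNA that silences Igf2r outside neurons, had 9.63 and 7.51. Their ratio, Airn to Igf2r, was 0.872 and 0.848, the pair closest to equality of the 21 examined on the TPM scale. On CPM, with no correction for length, their mean log2 ratio was -3.16 in place of -0.20, and H19 over Igf2 (-0.20) was then nearer to equality. The near equality on TPM rests on a length of 7923 bases for Igf2r and only 936 for Airn in replicate 1. Airn had 179 and 159 counts. Impact, a translational regulator of brain, had 45.2 and 47.1 TPM, Rasgrf1, a guanine exchange factor of neurons, 14.4 and 14.15, and Trappc9, a subunit of a trafficking complex, 34.5 and 34.95. Plagl1, a zinc finger transcription factor that restrains proliferation, had 39.9 and 21.4 TPM, of which 98.97% and 98.4% came from 1 start site.

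By active allele, paternally expressed members were more uniformly on. Of 25 measured, 24 were detected, with a median of 27.7 TPM in replicate 1 and 21.4 in replicate 2. Of 10 maternally expressed members 6 were detected, with medians of 16.9 and 19.1. The 4 that fell short, Ascl2, Slc22a18, Phlda2 and Zim1, all encode proteins and were above 1 TPM in replicate 1, so that this library alone would give 10 of 10. The 2 maternally expressed coding genes that were detected were Cdkn1c and Asb4. The 4 maternally expressed noncoding RNAs, H19, Meg3, Rian and Mirg, had medians of 207 and 177 TPM. All 12 members of the dependent class were detected, with medians of 75.2 and 61.7 TPM. The median log2(TPM + 1) of paternal members exceeded that of maternal members by 0.82 in replicate 1 and 0.35 in replicate 2 (mean 0.59 ± 0.33, SD, n = 2). The value of replicate 1 was over 1.5 times that of replicate 2, and the maternal class mixes 4 noncoding RNAs with 6 coding genes of much lower level.

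Within clusters, the order of neighbours was the same in both pools for all 21 pairs compared. The first gene was the higher in 7 pairs and the second in 14, and the log2 ratios ran from -8.13 for Nespas over Gnas to 4.73 for Meg3 over Dlk1. The ratio that moved most between the pools on this scale was Meg3 over Dlk1 (log2 4.28 and 5.17, SD 0.63), followed by Rtl1 over Dlk1 (-5.50 and -4.66, SD 0.59). Both contain Dlk1. Reads of some neighbours on opposite strands were shared between the genes, as the counts below show. Such sharing bears on 16 members that overlap a gene with at least 50 counts on the opposite strand. Among them are Nnat and Blcap, Ube3a and Snhg14, Mest and Copg2, Zrsr1 and Commd1, Gnas and Nespas, and Igf2r and Airn. Overlaps were taken over gene spans, introns included. Nnat, Blcap, Ube3a, Snhg14, Igf2r and Airn had whole-number counts in both libraries, so no split of their reads with another gene shows. Zrsr1, Commd1, Gnas and Nespas, like Mest and Copg2, had fractional counts. Mest and Copg2 had 17144.52 and 1217.48 counts in replicate 1, and 16136.49 and 1561.51 in replicate 2. H13 and the opposite-strand Gm26841 had 5381.35 and 28.65, then 6347.94 and 37.06. In each library the counts of either pair add to a whole number, so reads of these pairs were shared across strands. Without strand, a read in an exon of one gene and an intron of the other cannot be traced to its strand.

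**Figure D4:**
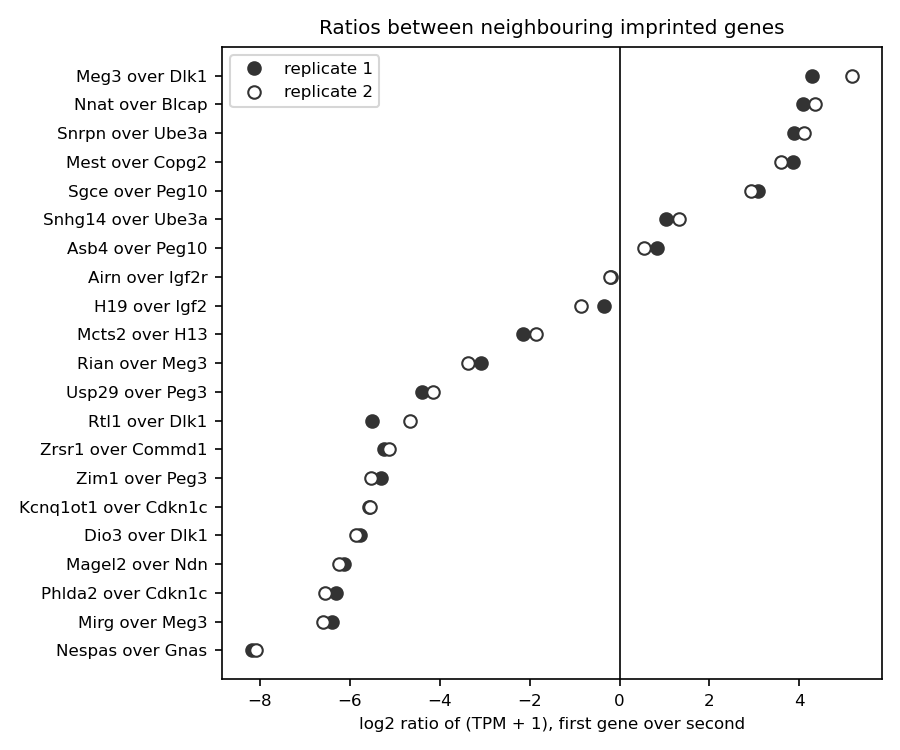
Log2 ratio of (TPM + 1) of the first gene over the second (horizontal axis) for 21 pairs of neighbouring imprinted genes; filled points are replicate 1, open points replicate 2, and the line at 0 marks equal levels. Points run from -8.13 (Nespas over Gnas) to 4.73 (Meg3 over Dlk1) as means, and no pair crosses the line between the pools.

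Across the 27 members examined for isoforms, 24 had at least 50% of their TPM at a single start site in both libraries and 14 had at least 90%. Sites were formed by joining annotated starts within 500 bases. In 8 of the 27 members this left only 1 site, so their counts above say nothing about a choice among starts. Igf2, Snhg14 and Rian had no site with 50% of TPM: the highest site of Snhg14 held 34.6% and 33.0%, and Rian was divided between 44.5% and 41.4% at one site and 35.4% and 36.2% at another. Meg3 had 63.6% and 61.6% at its first start, whose upstream sequence is given above. A long Meg3 transcript from the site at 109545398 held only 5.32% and 5.18% of Meg3 TPM but 36450 and 57210 of its expected counts. In shares of expected counts, the highest site held a mean of 47.7% in Meg3 and 52.3% in Rian, so that these genes change sides of the 50% line. The main site of Snrpn had 95.8% and 95.7%, and Dlk1 89.7% and 87.4% at 1 site.

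Small RNAs encoded within members could not be read from these libraries. The annotation places 252 snoRNA and microRNA genes of the tables inside members. The snoRNA genes number 221, of which 13 lie in Rian and all others in Snhg14, and 14 of the microRNA genes lie in Mirg. Of the 252, 248 have an effective length of 0 in the tables, so no read could be assigned to them, and 2 had a count above 0. The labels also give the size range of the RNA as over 200 nucleotides. The levels of Snhg14, Rian and Mirg above are therefore those of the host transcripts.

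Of 16 genes whose products lay down or keep imprints, 13 had RNA at 1 TPM or more in both libraries. Trim28, the corepressor that Zfp57 recruits, stood at 185 and 166 TPM, Zfp57 at 165 and 207, Dnmt3a, a de novo methyltransferase, at 107 and 91.1, and Ctcf, which insulates Igf2 from its enhancers on the maternal allele, at 91.8 and 70.3. Uhrf1, which brings the maintenance methyltransferase to replicated DNA (48.9 and 11.3 TPM, log2 ratio 2.02), and the de novo methyltransferase Dnmt3b (9.48 and 2.78, log2 ratio 1.47) were more than 2-fold higher in replicate 1, and were named after their values were seen. The 3 lowest are known from germ cells and the early embryo: Dppa3 was listed at 0 in both libraries, Dnmt3l at 0.08 and 0, and Ctcfl at 0.09 and 0.07. Of 39 other genes of the same clusters that are not members, 23 were detected, with a median of 4.53 and 3.05 TPM, led by Cd81 (429 and 402), Nap1l4 (225 in each library), Tssc4 (84.7 and 86.2) and Ppp2r5c (67.9 and 61.8). All 9 partners of the IGF pathway were detected, with the binding proteins Igfbp2 (228 and 279.5 TPM) and Igfbp4 (175 and 123) far above the receptor Igf1r (14.8 and 14.6) and the ligand Igf1 (24.1 and 19.99), which was below Igf2 in both pools.

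Between the pools, the imprinted genes differed little as a group, and H19 was the member that differed most among those above the level filter. A gene was called apart at a 2-fold difference of (TPM + 1) with a mean of at least 5 TPM and 50 counts over both libraries. Of the 37 members past that level, 1 was apart, H19, which was higher in replicate 1 by 1.05 on the log2 scale, and 0 were higher in replicate 2. Over all 11969 genes past the same level, 3.48% were apart: 3.34% were higher in replicate 1 and 0.134% in replicate 2. The median log2 ratio of the 47 members was -0.03, against 0.02 over genes at 1 TPM in either library. With 1 library on each side, none of these differences has a replicate check.

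After H19, the members with a level of 5 TPM or more that were highest in replicate 1 relative to replicate 2 were Plagl1 (log2 ratio 0.87), Igf2 (0.52), Grb10 (0.51), Dlk1 (0.45) and Peg12 (0.44). On the other side were Meg3 (-0.44), Nnat (-0.42), Snhg14 (-0.36), Ndn (-0.29) and Mkrn3 (-0.29), closely followed by Snrpn and Mcts2 (-0.28 each). Sums moved with these: the Igf2-H19 and Kcnq1ot1 domains made 534 TPM in replicate 1 and 375 in replicate 2, the Dlk1-Dio3 domain 2548 and 3305, and Nnat with Blcap 2990 and 3952. Markers moved too. The thymus list was higher in replicate 1 in 8 of 8 genes, led by Prss16 (136 and 0.07 TPM) with Cd3g at 93.0 and 0, the epithelial list in 7 of 7 (Krt8 at 266 and 1.97), the proliferation list in 5 of 5 (Top2a at 58.15 and 21) and the mesenchyme and meninges list in 6 of 8 (sum 1181 and 921 TPM). The endothelium and blood list was also higher in replicate 1, in 5 of 5 (sum 6010 and 5269 TPM). The neuron list was higher in replicate 2 in 8 of 8 genes (sum 3411 and 3999 TPM). So were radial glia and progenitors in 6 of 7 (2062 and 2471), skeletal muscle in 6 of 6 (144 and 262) and cartilage in 6 of 6 (78.6 and 121). Of the 6 placenta and yolk sac markers (sum 29.95 and 9.36 TPM), Prl3d1, Prl3b1 and Tpbpa were listed at 0 in both, and Apoa1 (16.4 and 6.01 TPM), Afp (9.60 and 2.51) and Ttr (3.98 and 0.84) were higher in replicate 1. The part of these cell types in the differences between the pools was not tested.

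**Figure D5:**
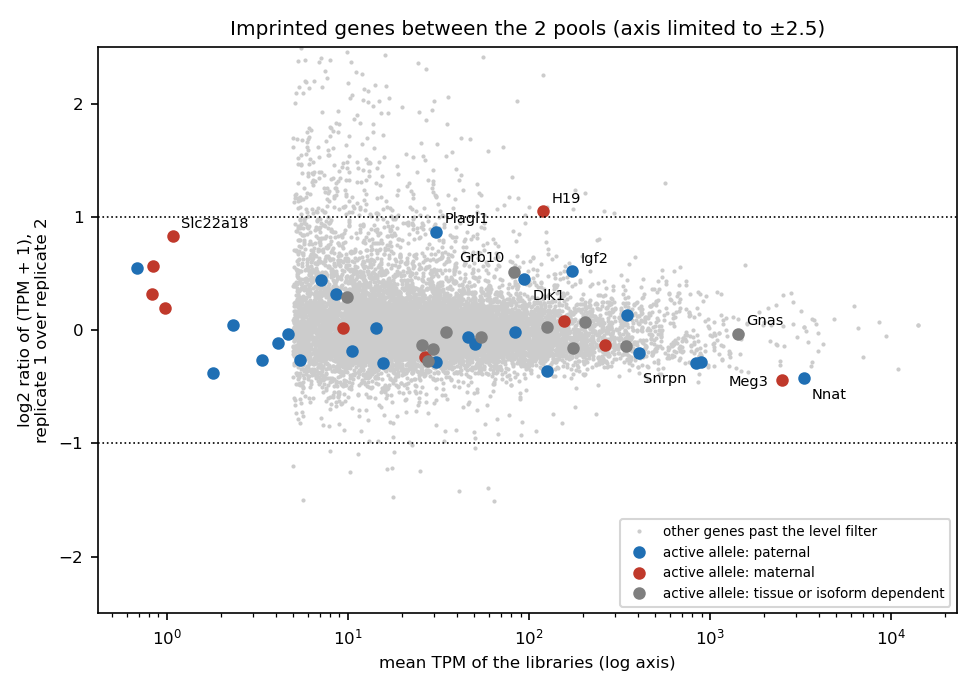
Log2 ratio of (TPM + 1), replicate 1 over replicate 2 (vertical axis), against mean TPM (log axis); coloured points are the imprinted genes by active allele, grey points other genes with a mean of at least 5 TPM and 50 counts, and dotted lines mark a 2-fold difference. H19 at 1.05 is the only member beyond a dotted line; Plagl1 (0.87) lies just inside it, and Meg3 (-0.44) and Nnat (-0.42) lie below 0.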

How the data were processed

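Total RNA-seq of 2 libraries of neural tube, 1 group, was analysed from the deposited gene and transcript tables, which were made from transcriptome alignments on mm10 with GENCODE release M4, per the notes the authors deposited with each sample, with aligner, quantifier, versions and strand use not given in the sources used here. Each table holds, per the file headers, expected counts, TPM scaled over all entries with spike-ins included, and FPKM, which was not used. The authors' percent of gene TPM per transcript was deposited in the transcript tables and was replaced here by shares computed from TPM. Among the 69691 entries of a gene table are 43346 genes, 96 spike-ins (2.12% and 2.28% of counts), 26248 entries named by a number, and a phage control; only genes were analysed, and genes hold 95.0% and 94.6% of TPM. Symbols and coordinates came from GENCODE M21 on GRCm38 (42462 genes matched), and promoter sequences from RefSeq. Detection meant 1 TPM in both libraries, log2 ratios used a pseudocount of 1, and genes apart followed the rule given above; there is no test, since both libraries belong to 1 group. At this depth 3 counts correspond to 0.0677 TPM for Meg3 and 0.288 TPM for Commd1 in replicate 1, a limit from counting error only. The labels call the libraries biological replicates from separate pools.

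The 48 members, 17 gene lists (154 genes, 151 found), pairs and rules were chosen with earlier results of these data known. Named genes were all members, the highest (up to 4) and lowest (up to 3) genes of a list or all genes of lists of 8 or fewer, and start sites with at least 5 percent of a gene; start sites under that share are given for Gnas and Inpp5f, Igf1 is given beside Igf2, and the end classes of H13 and the genes named for differences between the pools were chosen after their values were seen. Alternatives were other thresholds, pseudocounts, posterior mean TPM, CPM, start windows, TMM factors from edgeR 4.0.16 and size factors from DESeq2 1.42.0 (R 4.3.3, expected counts rounded), and each library left out. The calculations ran in Python 3.11.15 with numpy 2.4.6 and pandas 2.3.3. The code for genes apart was run on simulated counts with counting error only and with changes well above 2-fold. That run could not test spread between pools or differences near 2-fold.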

Additional observations from a re-analysis of the deposited data

How the results depend on the processing

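The 2 pools of 1 group set the limits: no condition can be compared, an SD over 2 values is itself imprecise, and levels near 1 TPM rest on few counts. The count of detected members was 42, and ran from 36 at a threshold of 5 TPM to 45 at 0.5 TPM; with 1 library left out it was 42 to 47, the larger value being replicate 1 alone. The paternal minus maternal median was 0.59; on CPM it was 1.16, where length is not corrected, and with 1 library left out it was 0.35 to 0.82. Members apart between the pools were 1 at 2-fold and 2 at 1.5-fold, H19 and Plagl1, where 7.01% of genes were higher in replicate 1. Snhg14 over Ube3a reversed on CPM (log2 ratio -0.64), and the pairs with the first gene higher were then 6 in place of 7. With start windows of 100 bases, and with shares of expected counts, 23 in place of 24 genes had a dominant start; by counts Meg3 fell under 50% (47.7%) and Rian passed it (52.3%). The median ratio of members was -0.08 with TMM and -0.09 with DESeq2 size factors; Asb4, H13 and Rasgrf1, all near 0, changed sign under these. Ratios between the pools cannot be recomputed without a library. Of the other values of the main results, 34 moved by less than the spread or under 1.5 times. For single genes, pairs and sites, 152 moved by less than the SD between the pools and 60 by more. These counts include settings with 1 library left out. With 2 libraries, that step always moves a mean by less than the SD. Pairs and the paternal minus maternal median therefore could not count as moved there. No paired analysis was possible because the 2 libraries form 1 group and no groups share replicate numbers.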
